A study of Arabidopsis thaliana with 8 samples.

Results

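CYP71B22 (AT3G26200, probe set 257636_at) and CYP71B24 (AT3G26230, probe set 257625_at) are paralogous cytochrome P450 genes of Arabidopsis thaliana. They are 2 of the 24 P450 genes that had a probe set of their own in the probe annotation, and 2 of 13355 such genes of any kind. They were picked for their signals on the same 8 arrays, where both were higher in fum, so their difference between the groups is described here without a test. RNA was taken from cell cultures of the Landsberg erecta background and labelled with biotin for 4 arrays whose titles carry the word fum and 4 whose titles carry the word met. The labels explain neither word and call neither group a control. Both groups share the culture conditions: 24 °C, Murashige and Skoog medium, sucrose as nutrient, and the plant hormones NAA (a synthetic auxin) and kinetin (a cytokinin). The series title speaks of core genes of programmed cell death. Whether each array stands for a culture of its own is not stated, so the spread within a group may be technical.

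Cytochrome P450s are heme enzymes that insert an oxygen atom into small molecules. Most plant P450s sit in the membrane of the endoplasmic reticulum and receive electrons from NADPH-cytochrome P450 reductase. The CYP71 family is large in plants and takes part mainly in specialised metabolism, such as the synthesis of defence compounds. The best-known CYP71B enzyme of Arabidopsis is CYP71B15 (PAD3), which completes the synthesis of the phytoalexin camalexin. Many CYP71B genes lie side by side in the genome, as products of tandem duplication.

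Both members lie in such a run on chromosome 3. In the gene order of the TAIR10.1 assembly, 18 CYP71B genes, 2 of them annotated as pseudogenes, stand between CYP71B16 and CYP71B37 with 7 other genes among them. CYP71B22 and CYP71B24 are separated there by 2 genes, CYP71B23 and CYP71B3. Of the 18 genes, 11 had a probe set of their own here. The other 7, CYP71B3 among them, have no value below. Probe sequences were not used here, and how far each probe set also reads transcripts of close paralogues was not tested.

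CYP71B22 had the larger difference of the pair. Its signal, in the linear units of the MAS5 software with each array scaled to a mean of about 100, was 318.7, 315.8, 504.8 and 439.7 on fum arrays 1 to 4, against 58.9, 145.4, 73.3 and 53.9 on met arrays 1 to 4. The groups did not overlap: the dimmest fum array, replicate 2, was above the brightest met array, also replicate 2. The mean was 395 ± 93.4 in fum and 82.9 ± 42.5 in met (SD, n = 4 each). The ratio of geometric means was 5.07, a log2 difference of 2.34 with an SE of 0.37 from the spread within groups. Among the 13647 probe sets bright enough to be tested, only 4 had a larger positive difference, so CYP71B22 ranked 5 from the top.

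CYP71B24 differed in the same direction. It had 30.8, 37.8, 42.9 and 41.5 signal units on fum arrays 1 to 4, against 14.2, 22.1, 16.1 and 19.4 on met arrays 1 to 4. Again the groups did not overlap, with fum replicate 1 the lowest of its group and met replicate 2 the highest of its own. The mean was 38.3 ± 5.41 in fum and 17.95 ± 3.50 in met (SD, n = 4 each). The ratio of geometric means was 2.14, a log2 difference of 1.101 with an SE of 0.18, and it ranked 53 from the top. The met mean lies under 21.1, the signal above which a probe set's mean over all arrays had to lie to be tested. With 16 added to each signal, which damps differences between dim values, the log2 difference of CYP71B24 was 0.68 and that of CYP71B22 was 2.11. In RNA from a whole culture, a change in the number of cells that hold a transcript cannot be told apart from a change in the amount per cell.

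**Figure D1:**
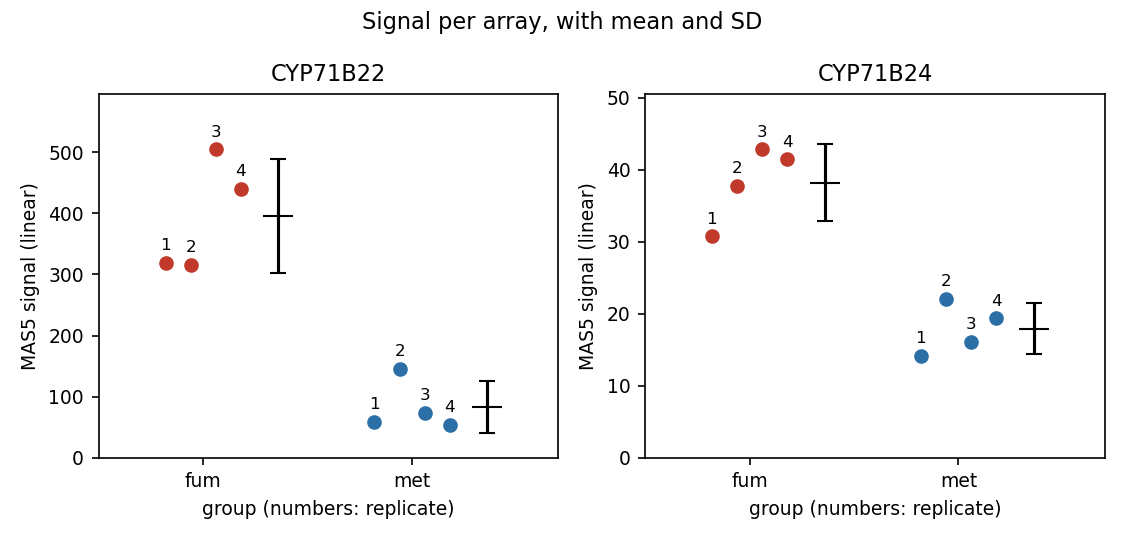
MAS5 signal (linear axis from 0) of CYP71B22 and CYP71B24 on each of the 4 fum and 4 met arrays, with the replicate number beside each point and the mean and SD as a bar. CYP71B22 spans 315.8 to 504.8 in fum and 53.9 to 145.4 in met, and CYP71B24 spans 30.8 to 42.9 in fum and 14.2 to 22.1 in met.

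For scale, the 4 fum arrays lay above all 4 met arrays for 6.04% of the 13647 tested probe sets, and the groups did not overlap in either direction for 12.4%. At an adjusted p under 0.05 in limma, a linear model fitted across all probe sets, 351 probe sets or 2.57% were called. Both members belong to the first set because they were chosen for it, and nothing is read from that.

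The order of the arrays was similar, though not the same, for the 2 paralogues, and much of it is the difference between the groups for which they were chosen. Each gene was set against its own met mean on the log2 scale, since levels of different probe sets cannot be compared. CYP71B22 then stood at 2.06, 2.05, 2.73 and 2.53 on fum arrays 1 to 4, against -0.37, 0.93, -0.057 and -0.50 on met arrays 1 to 4. CYP71B24 stood at 0.80, 1.095, 1.28 and 1.23 on fum arrays 1 to 4, against -0.32, 0.32, -0.14 and 0.13 on met arrays 1 to 4. In both genes fum replicate 3 was highest and fum replicate 4 came next, and met replicate 2 was the highest met array. Fum replicates 1 and 2 followed in a different order, with replicate 2 lower for CYP71B22 and replicate 1 lower for CYP71B24. The order of the other 3 met arrays also differed, with met replicate 4 lowest for CYP71B22 and met replicate 1 lowest for CYP71B24.

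CYP71B22 differed by more than CYP71B24 on every fum array. The gap between the 2 genes' values was 1.26, 0.95, 1.45 and 1.298 on fum arrays 1 to 4, against -0.055, 0.61, 0.079 and -0.63 on met arrays 1 to 4. Its mean was 1.24 ± 0.21 in fum and 0 ± 0.51 in met (SD, n = 4 each), where the met mean is 0 by construction. The log2 difference between the groups was thus larger for CYP71B22 by 1.24, or 2.36-fold on the linear scale. The lowest fum value, 0.95, lay above the highest met value, 0.61. The gap was 0.76 with the signal of the spiked-in controls, described next, as a covariate, and 0.50 within the 3 arrays of middle spike-in signal. Its size also rests on CYP71B24, whose met mean lies under the filter signal. Both genes were chosen on these arrays, so this gap has no test either.

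**Figure D2:**
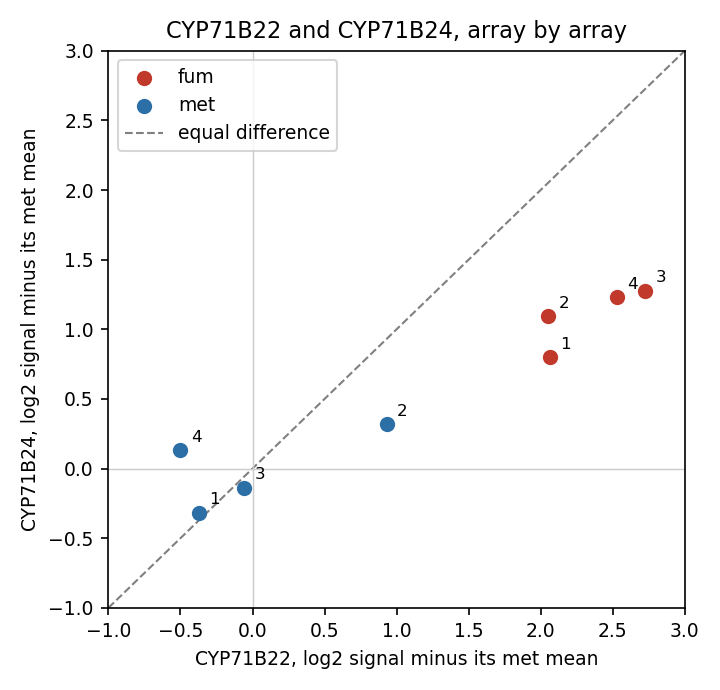
Log2 signal minus the gene's own met mean for CYP71B22 (x axis) and CYP71B24 (y axis), 1 point per array with its replicate number. The 4 fum points lie at 2.05 to 2.73 on the x axis and 0.80 to 1.28 on the y axis, below the dashed line of equal difference, and met replicate 2 lies between them and the other met arrays.

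The signals of both members also ran against those of the spiked-in hybridization controls, bacterial and phage transcripts that are added in fixed amounts. The geometric mean of 18 such probe sets was 251.6, 261.5, 158 and 164.9 on fum arrays 1 to 4, against 390, 249, 384 and 347 on met arrays 1 to 4. Its mean was 209 ± 55.1 in fum and 343 ± 65.2 in met (SD, n = 4 each). The arrays with the lowest spike-in signal, fum replicates 3 and 4, were the 2 highest for CYP71B22 and for CYP71B24, and met replicate 2, the lowest met array in spike-in signal, was the highest met array for both.

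The groups met in spike-in signal at fum replicates 1 and 2 and met replicate 2. Within these 3 arrays the log2 difference was 1.13 for CYP71B22 and 0.63 for CYP71B24, with no spread between met arrays to set it against. With the log2 spike-in signal as a covariate over all 8 arrays it was 1.43 for CYP71B22 and 0.67 for CYP71B24. Both settings were chosen after the data were seen. With that covariate limma called 0 of 13647 probe sets at an adjusted p under 0.05, and 1236 had an unadjusted p under 0.05. Spike-in signal and group move together, and what part the first has in the difference between the groups was not tested.

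**Figure D3:**
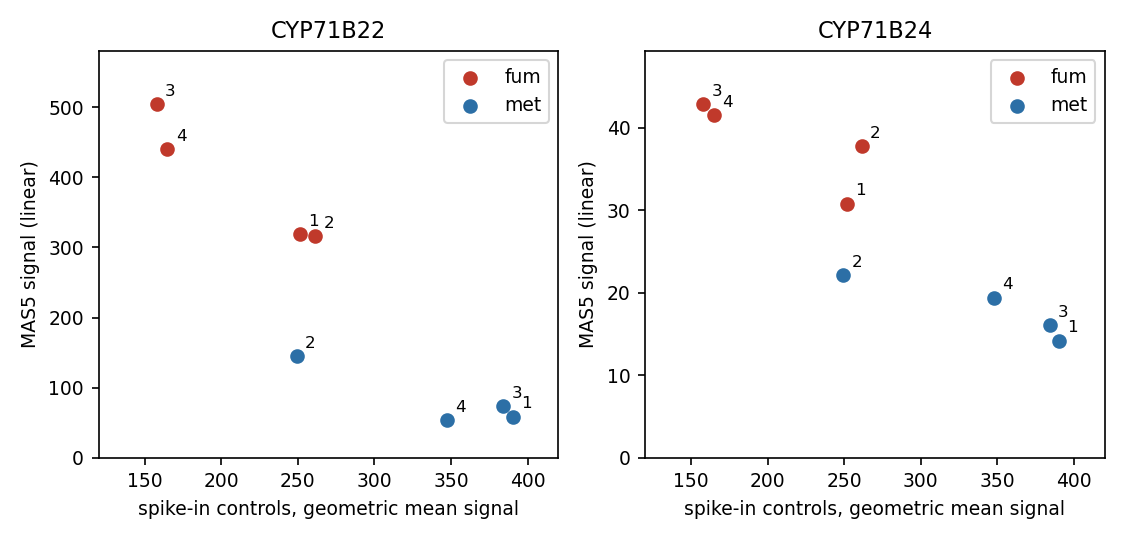
MAS5 signal (linear axis from 0) of CYP71B22 and CYP71B24 against the geometric mean signal of 18 spike-in control probe sets, 1 point per array with its replicate number. Fum replicates 3 and 4 lie at the upper left, met replicates 1, 3 and 4 at the lower right, and met replicate 2 lies at 249 on the x axis beside fum replicates 1 and 2.

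Other features of the arrays also varied. The median signal of an array was 33.1 to 41.5. The signal of 25S ribosomal RNA was 157.6 for fum replicate 3, against 824 for met replicate 1 and 1305 for met replicate 2, and lay between 2806 and 4491 on the 5 arrays left. Within the 5 arrays of high 25S signal the log2 difference was 2.49 for CYP71B22 and 1.04 for CYP71B24, and within the 3 of low signal, 1 of them fum, it was 2.45 and 1.28. Actin control signals differed 12.0-fold between the 3′ and 5′ ends of the transcript for met replicate 1 and 1.92-fold to 2.39-fold elsewhere, and without met replicate 1 the members stood at 2.22 and 0.99.

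Few markers of differentiated cells had a probe set of their own. For chloroplast-bearing leaf cells it was 1 of 8 genes, RCA (rubisco activase), at 382.7 to 464.4 in fum and 470.5 to 588.3 in met, and it did not pass (limma adjusted p = 0.155). For root and root hair cells it was 1 of 5, EXPA7, an expansin of root hairs, at 9.6 to 25 in fum and 7.8 to 19.3 in met. For embryo and seed cells it was 0 of 5, and for dividing cells 1 of 6, the kinase gene AUR1, at 90.7 to 122.3 in fum and 116.9 to 132 in met (adjusted p = 0.581). For RCA every fum array lay below every met array, where 12.4% of tested probe sets separated the groups in either direction. Its unadjusted limma p was 0.0139, and 17.9% of tested probe sets had one under 0.05. The part of RCA in the members' difference was not tested.

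The 22 other P450 genes of the annotation are a small part of the 253 that the TAIR10.1 gene table names, and 17 are CYP71B genes. Of these 22 genes, 2 were bright enough to be tested. In limma 0 of the 2 passed an adjusted p under 0.05, against 2.57% of all tested probe sets. At an unadjusted limma p under 0.05 the count was 1, against 17.9% of all tested probe sets. The 2 tested genes were CYP71B23, which lies next to CYP71B22 in the run, and CYP71B6, which lies on chromosome 2. The median log2 difference was 0.28 over the 22 genes, 0.14 over the probe sets too dim to be tested, to which 20 of the 22 genes belong, and 0.03 over all 22746 probe sets other than controls.

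CYP71B23 had 102.5, 74.1, 183.7 and 131.5 signal units on fum arrays 1 to 4, against 96.0, 117.1, 77.6 and 81.2 on met arrays 1 to 4. The groups overlapped, with fum replicate 2 below every met array and fum replicate 3 highest of all, as it was for both members. The mean was 123 ± 46.8 in fum and 93.0 ± 17.9 in met (SD, n = 4 each). The log2 difference was 0.34, with a 95% interval from -0.19 to 0.88 (limma adjusted p = 0.508). It was 0.12 without fum replicate 3 and 0.56 without fum replicate 2. With the spike-in signal as a covariate it was -0.44 (adjusted p = 0.599), and within the 3 arrays of middle spike-in signal -0.43.

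CYP71B6 takes part in the metabolism of indole-3-acetonitrile to indole carboxylic acid derivatives, a branch of tryptophan-derived defence metabolism. It had 802.2, 641.5, 973.1 and 776.1 signal units on fum arrays 1 to 4, against 722.0, 695.9, 607.4 and 582.9 on met arrays 1 to 4. Fum replicate 2 lay within the met range and the other 3 fum arrays above it. The log2 difference was 0.28, with a 95% interval from 0.0022 to 0.56 (limma adjusted p = 0.276, unadjusted p = 0.0485). It was 0.18 without fum replicate 3 and 0.38 without fum replicate 2. With the spike-in signal as a covariate it was 0.039 (limma adjusted p = 0.970), and within the 3 arrays of middle spike-in signal 0.044.

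The remaining 20 P450 genes had mean signals below the filter, and 7 of their 160 single values exceeded 21.1. MAS5 values in this range are noisy, and their log2 differences ran from -1.39 to 3.16. The mean was higher in fum for 14 of the 20, which is 70% set against 60.3% of the 9099 probe sets that were too dim to be tested. When all probe sets were tested with no filter, 0 of the 22 other P450 genes passed, against 1.2% of 22746 probe sets, and 3 had an unadjusted limma p under 0.05, against 12.7%.

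The dim gene that stood apart was CYP71B21, the neighbour of CYP71B22 on the side away from CYP71B23. It had 11.3, 2.3, 5.6 and 9.3 signal units on fum arrays 1 to 4, against 2.0, 0.3, 0.7 and 0.5 on met arrays 1 to 4. Every fum array lay above every met array, though fum replicate 2 and met replicate 1 were 0.3 units apart. Among dim probe sets 2% had all fum arrays on top. Tested with no filter, it did not pass (limma adjusted p = 0.0674, unadjusted p = 0.00105). Its log2 difference, 3.16, rests on signals far below the filter, and its size is uncertain.

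In the rest of the run no gene with a probe set of its own separated the groups. CYP71B23 aside, these genes were below the filter, where 2.9% of probe sets separated the groups in either direction. Nothing is read from their overlap. CYP71B25 had 5.2 to 13.9 signal units in fum and 6.0 to 8.5 in met, and CYP71B34 had 7.8 to 19.0 in fum and 8.6 to 15.5 in met. CYP71B16 (3.3 to 12.6 in fum, 0.8 to 6.1 in met) and CYP71B26 (1.8 to 17.1 in fum, 1.8 to 6.5 in met) were dimmer. CYP71B35, at 1.0 to 11.3 in fum and 5.7 to 9.7 in met, was the gene of the run with the lowest log2 difference, -1.39, and fum replicate 1 was its highest array. CYP71B36 and CYP71B37 did not exceed 5.6 and 7.2 on any array. Among the 11 genes of the run with a probe set of their own, CYP71B22, CYP71B23 and CYP71B24 had mean signals above the filter. CYP71B24 cleared it through its fum arrays, for which it was chosen, as its met mean was 17.95. Nothing is read from its place above the filter. In gene order CYP71B23 stands between the 2 members.

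**Figure D4:**
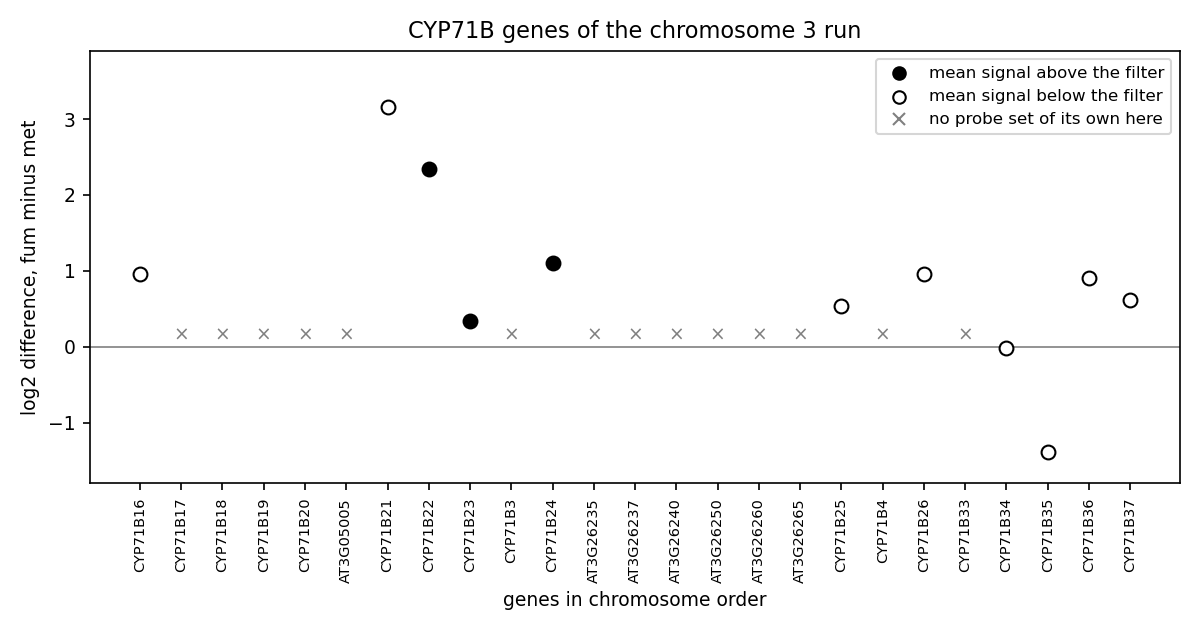
Log2 difference (fum minus met) of the genes of the chromosome 3 run in gene order, with filled points for mean signals above the filter, open points for mean signals below it and crosses for genes with no probe set of their own here. CYP71B22 stands at 2.34, CYP71B23 at 0.34 and CYP71B24 at 1.101, and the open points run from -1.39 to 3.16.

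Outside the run, 8 CYP71B genes had a probe set of their own, and CYP71B6 alone of them passed the filter. On chromosome 1, CYP71B27 had 6.5 to 24.4 signal units in fum and 10.8 to 15.8 in met, CYP71B28 had 9.1 to 14.8 in fum and 7.4 to 14.4 in met, and CYP71B29 had 2.4 to 21.3 in fum and 1.4 to 6.9 in met. Elsewhere on chromosome 3, CYP71B38 had 4.7 to 6.8 in fum and 5.8 to 12.1 in met. CYP71B5, CYP71B31 and the pseudogene CYP71B30P did not exceed 9.7, 6.5 and 5.1 on any array. The groups overlapped in all of these. The 5 P450 genes outside the CYP71B subfamily (CYP51G2, CYP718, CYP78A9, CYP79A2 and CYP84A4) had signals of 0.6 to 29.8 and log2 differences of -1.11 to 0.27, with no filter none passed (smallest limma adjusted p = 0.261), and the smallest unadjusted p was 0.0187, for CYP78A9.

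**Figure D5:**
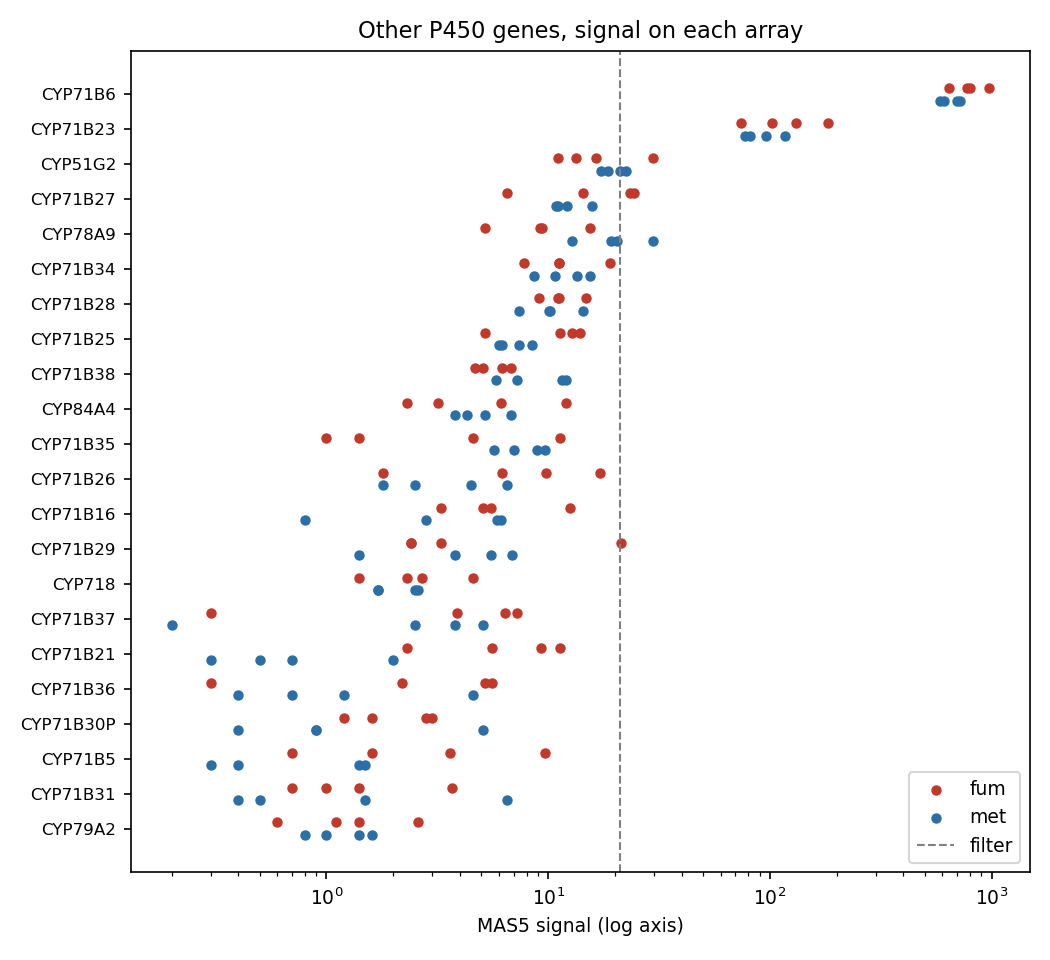
MAS5 signal (log axis) of the 22 other P450 genes on each array, ordered by mean signal, with fum points above met points in each row and the filter signal of 21.1 as a dashed line. CYP71B6 and CYP71B23 lie to the right of the line, and the other 20 genes have their mean to the left of it.

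Lists of P450 genes with known roles hardly met the annotation. Of 14 P450 genes of amino-acid-derived defence metabolism, 2 had a probe set that listed them alone, CYP71B6 and the dim CYP79A2, and 1 was tested. For the 6 phenylpropanoid, 24 hormone, 6 sterol and carotenoid, 12 fatty acid and 6 chemical-stress P450 genes the number was 0, as it was for the 10 electron-transfer partners such as the P450 reductases. None of those processes can be described from the named probe sets.

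The genes that flank the run were compared as a local background. Among the 20 genes on either side, 18 had a probe set that listed them alone, and 10 of these were tested. In limma 0 of 10 passed an adjusted p under 0.05, against 2.57% of all tested probe sets, and 2 had an unadjusted p under 0.05, against 17.9% of all tested probe sets. These 2 were AT3G26100, with a log2 difference of 0.80 (adjusted p = 0.112), and AT3G26360, with -0.65 (adjusted p = 0.0884). The median log2 difference was -0.087 over the 10 tested flanking genes and 0.068 over all 18.

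Other genes came closer to each member's array profile than the members did to each other. Likeness was taken as the root mean square difference of log2 signals over the 8 arrays, each gene centred on its own mean, and the members were compared with 7470 other tested genes. This measure includes the difference between the groups for which both members were chosen, so it is a description. Between CYP71B22 and CYP71B24 it was 0.706, and CYP71B24 was number 16 among the genes most like CYP71B22. In the other direction CYP71B22 was number 5263 of 7470 among the genes most like CYP71B24. The measure counts the size of a difference as well as its order, and that of CYP71B22 was the larger. A gene that hardly differs between the groups can therefore rank closer to CYP71B24 than CYP71B22 does. The rank does not show that the arrays stood in a different order for the 2 members.

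Nearest to CYP71B22 was AT1G24140 (0.33), at 113.4 to 139.5 signal units in fum and 22.3 to 39.3 in met. AT1G26380 (0.383) followed, at 194.7 to 366 in fum and 50.6 to 178.5 in met, and like CYP71B22 it was highest on fum replicate 3 and, among the met arrays, on met replicate 2. AT1G56060 (0.434), AT1G50590 (0.48) and AT2G28710 (0.492) completed the 5 nearest. All 5 had every fum array above every met array, as 6.04% of the 13647 tested probe sets had. They were picked for likeness to CYP71B22, itself chosen for its difference between the groups, so nothing is read from this.

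Nearest to CYP71B24 was AT1G44130 (0.0946), at 663.5, 700.0, 867.6 and 747.3 signal units on fum arrays 1 to 4, against 276.8, 475.2, 316.4 and 353.2 on met arrays 1 to 4. Its highest and lowest arrays within each group were those of CYP71B24: fum replicates 3 and 1, and met replicates 2 and 1. GT72B1, a UDP-glucose-dependent glucosyltransferase, was next (0.132), at 246.6 to 358.7 in fum and 120.2 to 194.7 in met. AT3G09000 (0.151), AT5G03610 (0.175) and AT4G16660 (0.186) followed. GT72B1 had a log2 difference of 0.98 and AT1G44130 of 1.09, beside 1.101 for CYP71B24.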

How the data were processed

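The table holds the MAS5 signal values that the authors deposited for 8 arrays, per the submitters' processing notes, with no version. Their mean between the 2nd and 98th percentile was 99.5 to 99.8 on each array. No genome build for the array is stated in these sources. Of 22810 probe sets, 13513 list 1 gene, 503 several and 8794 none. Symbols were updated through the TAIR10.1 RefSeq gene table, where 13436 of the 13513 matched, and which also gave gene order. P450 genes were recognised by symbol, name or list. The RefSeq table names 253 P450 genes. The 2 probe sets that list several genes, a P450 among them, were not used.

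Values of 0, which were 93, were replaced by 0.1, and signals taken to log2. Without the 64 control probe sets, those with a mean log2 signal above the 40th percentile, a signal of 21.1, were tested with limma 3.58.1 in R 4.3.3 (eBayes with intensity trend, two-sided, Benjamini-Hochberg over 13647 probe sets). The procedure was tested on simulated data. The number of arrays limits the precision.

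The members, the gene lists and the naming rule were chosen with earlier results of these data known. The rule names all CYP71B genes with their own probe set, up to 3 tested members of each list, and the 5 genes most like each member. CYP78A9, CYP79A2, CYP51G2, CYP718 and CYP84A4, the 2 flanking genes and AT3G26470 were named after their values were seen.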

Additional observations from a re-analysis of the deposited data

Results flagged for a closer look

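In 3 of the 88 sets of 4 arrays examined (44 genes in 2 groups), 1 array stood far from the other 3 of its group. For normally distributed values, chance alone gives about 1 in 20 such sets. The sets here are linear signals, and 2 of the 3 flagged genes lie below the filter. The rate for values of this kind was not examined. CYP71B29 read 21.3 on fum replicate 2 and 2.4 to 3.3 on the other fum arrays. The pseudogene CYP71B30P had 5.1 on met replicate 4, where the remaining met arrays had 0.4 to 0.9. AT3G26470, which flanks the run on chromosome 3, read 34.2 on fum replicate 3 and 43 to 43.5 on the other fum arrays. Neither CYP71B22 nor CYP71B24 had such an array.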

How the results depend on the processing

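Both members stayed higher in fum under every setting run, which is no test, since they were chosen for this. With every fum array above every met array, leaving arrays out could not reverse the sign. Leaving out each array in turn gave log2 differences of 2.175 to 2.652 for CYP71B22 and 0.9948 to 1.208 for CYP71B24, and 1.03 to 1.444 for the gap between them. Quantile normalization gave 2.34, 1.05 and 1.29, and median centring 2.31, 1.07 and 1.24. With 16 added to each signal CYP71B24 had 0.68. With the spike-in covariate the values were 1.43, 0.67 and 0.76, and within the 3 arrays of middle spike-in signal 1.13, 0.63 and 0.50; CYP71B23 then had -0.44 and -0.43. In every setting with several arrays in each group, 0 other P450 genes and 0 flanking genes passed in limma. In the main setting 2.57% of all tested probe sets did. Few were tested: with a filter 2 P450 genes and 7 to 10 flanking genes, with no filter 22 and 18. The largest counts at an unadjusted p under 0.05 came with no filter, 3 of the 22 and 4 of the 18, against 12.7% of all probe sets. Without fum replicate 2, 2 of the 2 tested P450 genes had such a p in limma, as did 2482 of 13647 probe sets. The count of 351 called probe sets became 116 with median centring, 164 without the intensity trend, 115 with the replicate block, 572 and 17 within the arrays of high and low 25S signal, 0 with the spike-in covariate and 133 within the 3 arrays. It was 112 to 416 with 1 array left out: 175, 167 and 112 when fum array 1, 3 or 4 was omitted, and 154 and 151 when met array 3 or 4 was. What lay behind these changes was not tested. The 25S and spike-in settings were added after seeing the data. The 3 arrays of low 25S signal hold 1 fum array and the 3 of middle spike-in signal 1 met array. Counts within them assume that this lone array varied like the others. The labels do not state that equally numbered arrays are paired. Deviations of equally numbered arrays from their group means correlated at -0.168, -0.298, -0.473 and 0.14 across probe sets. Of the fum arrays, only number 4 had the equally numbered met array as its best match. These values do not settle whether the arrays are paired. The block left the members' log2 differences as they were and changed no call among P450 or flanking genes. Each P450 gene had 1 probe set of its own, so averaging probe sets changed nothing, and the electron-transfer partners gave no count. CYP71B24 and the 20 dim P450 genes are limited by low signal.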
